A study of Mus musculus with 6 samples.

Results

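The neutrophil granule and alarmin genes are 8 genes, S100a8, S100a9, Lcn2, Ltf, Camp, Ngp, Retnlg and Wfdc21, out of 32285 in the gene tables. They were chosen by symbol, and each symbol matched 1 row in all 6 matrices. They were followed across neutrophils, monocytes or macrophages and epithelial cells, and as free RNA in T or NK cells and B cells.

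S100a8 and S100a9 encode the subunits of calprotectin, a cytosolic alarmin that is released from neutrophils, binds zinc, manganese and calcium, and signals through Toll-like receptor 4 and RAGE. Faecal calprotectin is a routine clinical marker of gut inflammation. Lcn2 (lipocalin 2) takes up bacterial siderophores, Ltf (lactoferrin) binds iron, Camp encodes the cathelicidin antimicrobial peptide, and Ngp encodes a cystatin-like protein of specific granules. Ltf, Camp, Ngp and Lcn2 are made mainly while neutrophils mature in the bone marrow, and C/EBP epsilon is a known activator of such specific granule genes. Retnlg encodes a resistin-like secreted protein and Wfdc21 a small whey acidic protein of myeloid cells. Lcn2, S100a8 and S100a9 are also known in inflamed epithelium and in activated macrophages.

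On the mouse mm10 build (GRCm38), S100a8 and S100a9 lie on chromosome 3, at chr3:90668978-90670035 on the plus strand and chr3:90692632-90695721 on the minus strand. Ltf (chr9:111019271-111042767, plus), Camp (chr9:109847379-109849617, minus) and Ngp (chr9:110419747-110423012, plus) lie within chromosome 9. Lcn2 is at chr2:32384633-32388252 (minus), Retnlg at chr16:48872621-48874496 (plus) and Wfdc21 at chr11:83746940-83752642 (plus). All 8 are protein-coding in GENCODE, and none overlaps another annotated gene. RefSeq promoter windows of the same build were matched for 7 of 8 members. The 250 bases before the RefSeq start were searched on both strands for TTGCNNAA, a form of the C/EBP core. For some members that start lies inside the GENCODE span given above. A match was found in 5 of the 7 members (S100a9, Lcn2, Ltf, Ngp and Retnlg), against 9.56% of 32851 windows of that length, and Ngp held a pair of them. The Lcn2 match and the Ngp match 11 bases before the RefSeq start lay inside the GENCODE span of their gene, so they are not printed. A match describes letters only and is no evidence of binding. The windows of S100a8 and Camp held no match, and both windows ran into the GENCODE span of the gene. Whether matches relate to the levels of the members was not tested. The stretches below are those outside the gene spans. They carry the match in capitals with up to 40 bases on either side, written 5′ to 3′ on the gene's strand.
Ngp chr9:110419630-110419717 (+ strand): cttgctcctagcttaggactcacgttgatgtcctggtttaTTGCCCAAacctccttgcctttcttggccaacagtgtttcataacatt
Ltf chr9:111019177-111019264 (+ strand): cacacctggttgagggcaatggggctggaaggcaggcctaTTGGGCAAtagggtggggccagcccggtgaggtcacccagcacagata
S100a9 chr3:90695910-90695971 (- strand): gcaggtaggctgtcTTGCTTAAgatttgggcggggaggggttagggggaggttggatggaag
Retnlg chr16:48872358-48872409 (+ strand): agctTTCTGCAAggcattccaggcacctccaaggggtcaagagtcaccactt

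Colonic CD45+ cells of wild-type mice were sorted and profiled by droplet single-cell RNA sequencing during dextran sulfate sodium (DSS), a polysaccharide given to injure the colonic epithelium. In pseudo germ-free (pGF) mice the flora had been depleted with antibiotics for 4 weeks before DSS, and antibiotics went on beside DSS; specific pathogen free (SPF) mice kept their flora. Each arm was sampled at days 0, 2 and 7 of DSS, so that day 0 is the state without DSS in that arm. Each of the 6 groups was 1 library, and how many mice went into a library is not given in the sources used here, so differences between libraries could not be set against the spread between mice and none was tested. Intervals are exact 95% counting intervals and do not cover spread between mice or cells.

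Sequencing gave 32870737, 52772901 and 23335071 molecules (UMIs) in pGF for days 0, 2 and 7, against 43949679, 37169685 and 46830975 in SPF. After filtering, 1262, 6932 and 6180 pGF cells and 2301, 2811 and 9644 SPF cells were kept. SPF day 2 stood apart, since 61.1% of its barcodes exceeded the mitochondrial limit of 10%, against 6.41% to 28.1% in the other 5 libraries. From 0.279% to 1.67% of barcode strings of the smaller library were shared between pairs of libraries. Epithelial cells remained in all libraries in spite of the CD45 sort. Cells were clustered with the 8 members left out of the genes used, and no member was a naming marker. Members did stay in the UMI totals used for scaling and among the 10 leading genes checked in naming. The classes were thus not wholly independent of them. Classes were named from markers such as Csf3r, Cxcr2 and Ly6g for neutrophils, and all 12 neutrophil markers were found in neutrophils of pGF day 2, pGF day 7 and SPF day 7, and 11 of 12 in SPF day 2, where Ly6g was at 0. Of the 48 SPF day 2 neutrophils, 13 lay outside the main cluster c17 and had 0 UMIs of S100a8, S100a9, Csf3r and Cxcr2, with 4 of the 12 markers found, and so did 5 of the 48 in pGF day 2. Day 2 values are therefore also given for c17 alone, a restriction chosen after the clusters had been seen. Levels are CPM, the UMIs of a gene summed over a class and scaled to the class's total, and fewer cells and less RNA per cell cannot be told apart in whole-library shares. Differences are log2 ratios of CPM + 10, and 2-fold is the threshold for calling one higher or lower.

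Together the members made up 0.00389%, 0.0179% and 0.0495% of the UMIs of kept pGF cells at days 0, 2 and 7. In SPF they made up 0.000207%, 0.0145% and 10.9%. The share was higher at each later day in both arms, and at day 7 more than 1 in 10 molecules in SPF colon cells came from these 8 genes. The pGF share was 220-fold lower than the SPF share at day 7 (interval 216 to 225), and it was 1.24 times the SPF share at day 2 (1.19 to 1.29). At day 0 it was 18.8 times the SPF share (15.1 to 23.7), from 1194 member UMIs against 84. Neutrophils supplied 80.2% of those 1194 UMIs from 7 cells, and a single cell of the monocyte or macrophage class supplied most of the rest. That cell also held UMIs of 10 of the 12 neutrophil markers. At day 7 neutrophils held 95.9% of member UMIs in both arms. Neutrophils were 1.23% of kept cells in pGF at day 7 (76 cells) and 26.9% in SPF (2595 cells), so the library share combines how many neutrophils were caught with how much each contained.

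**Figure D1:**
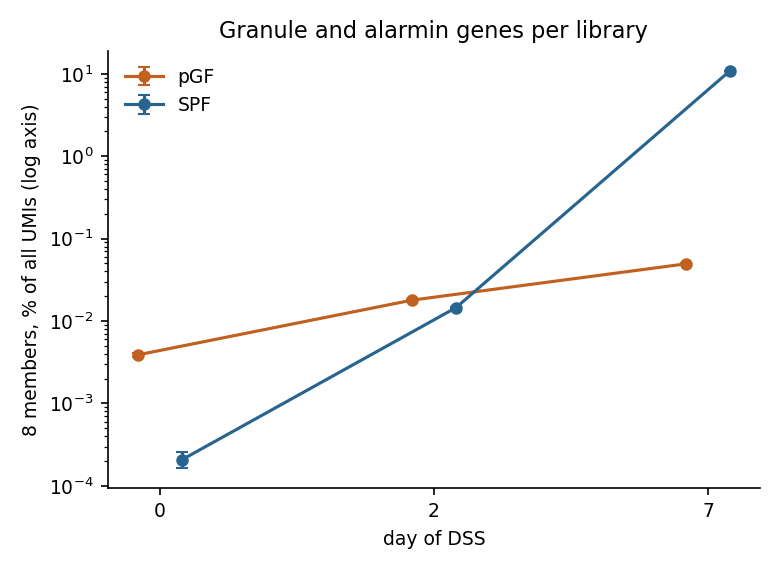
The 8 members as a percentage of all UMIs of kept cells on a log axis, by day of DSS (days evenly spaced), in pGF and SPF libraries (1 library per point, bars are exact 95% counting intervals, mostly smaller than the points). SPF reached 10.9% at day 7, while pGF stayed at 0.0495%.

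Within neutrophils, all 8 members were at least 2-fold lower in pGF than in SPF at day 7, where 10.2% of the 5455 measured genes were that much lower. The median log2 ratio was -3.64 over the members (also with Camp and Ngp, at 0 UMIs in pGF, set at their bounds) and 0.54 over all measured genes. Here S100a8 and S100a9 alone took 26.9% of neutrophil UMIs in SPF at day 7 and 8.38% in pGF, a gap that itself moves the CPM of all other genes. Neutrophils of pGF day 7 were also shallower, with a median of 1183 UMIs per cell against 3851 in SPF.

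The alarmins were the most even members across libraries. S100a8 stood at 34946 CPM (33718 to 36207) and 35770 CPM (34642 to 36925) in neutrophils of pGF days 2 and 7. In SPF it stood at 19527 CPM (18435 to 20667) and 137205 CPM (136994 to 137416). Thus 3 of the 4 libraries lay within a 2-fold band and SPF day 7 lay above them all. S100a9 showed the same order, with 45040 and 48001 CPM in pGF days 2 and 7 and 25235 and 132129 CPM in SPF days 2 and 7. The day 7 level was 3.84-fold lower in pGF for S100a8 (3.72 to 3.96) and 2.75-fold lower for S100a9 (2.68 to 2.83). Per cell, the median of S100a8 and S100a9 UMIs together was 93 and 79.5 in pGF days 2 and 7, and 22.5 and 875 in SPF days 2 and 7, where the SPF day 2 median includes the 13 cells at 0.

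**Figure D2:**
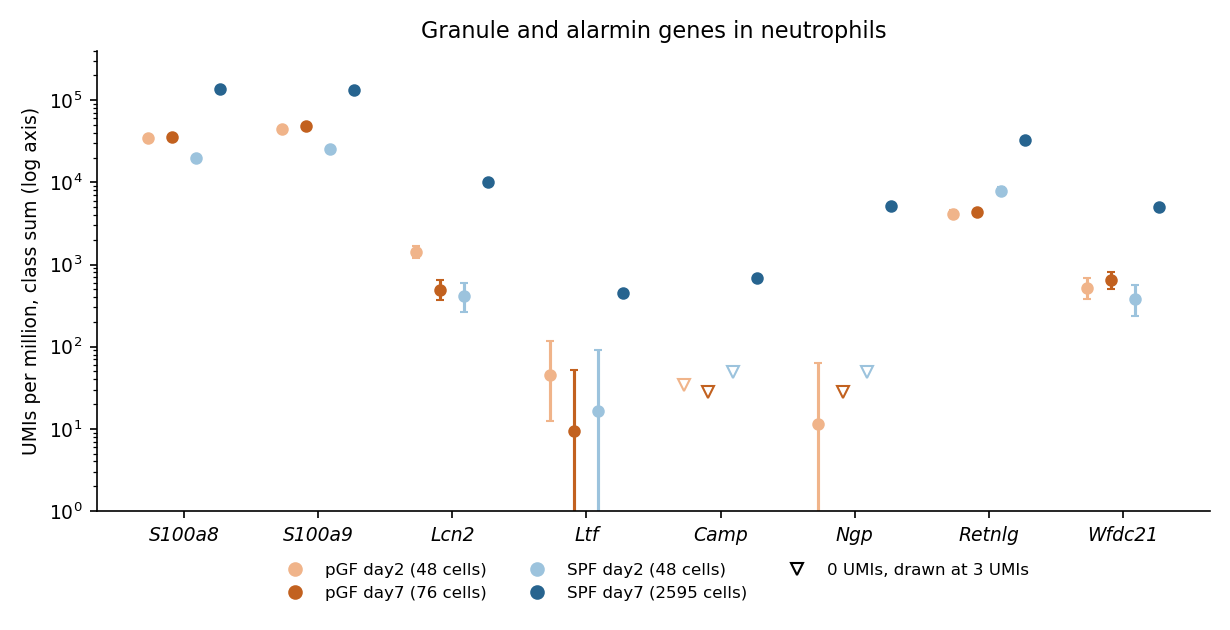
CPM of each member in neutrophils on a log axis, with the class sum of 1 library per point, for pGF days 2 and 7 and SPF days 2 and 7. Bars are exact Poisson 95% intervals, open triangles mark 0 UMIs and are drawn at the level 3 UMIs would give. SPF day 7 is the highest point for all 8 genes.

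The subunits of calprotectin also shifted against each other. There were 77.6 and 74.5 UMIs of S100a8 per 100 of S100a9 in pGF neutrophils at days 2 and 7, and 77.4 and 103.8 in SPF neutrophils. Within SPF day 7 the proportion differed between clusters. Cluster c17, the only neutrophil cluster with cells of all 6 libraries, gave 77.6 (74.0 to 81.4) and 74.4 (71.0 to 77.8) in pGF days 2 and 7, and 77.4 (71.7 to 83.5) and 69.3 (68.5 to 70.1) in SPF days 2 and 7. Cluster c5, with 1474 of its 1476 cells from SPF day 7, gave 105.6 (105.3 to 105.8). The 7 pGF day 7 neutrophils outside c17 held 539 UMIs of S100a8 and 714 of S100a9. Outside c17, cluster and library could thus not be told apart.

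The specific granule genes separated the arms furthest. Lcn2 stood at 1429 CPM (1189 to 1703) and 489 CPM (365 to 641) in pGF days 2 and 7, and at 409 CPM (265 to 604) and 10063 CPM (10006 to 10121) in SPF days 2 and 7. It was 20.6-fold lower in pGF at day 7 (15.7 to 27.6). Ltf rested on 4 UMIs and 1 UMI in pGF days 2 and 7 and on 1 UMI in SPF day 2, against 5311 UMIs (450.2 CPM) in SPF day 7. Camp had 0 UMIs in neutrophils of pGF day 2, pGF day 7 and SPF day 2, against 7984 (677 CPM) in SPF day 7. Set at 3 UMIs, the pGF day 7 level of Camp was at least 24.0-fold lower than that of SPF. Ngp had 1 UMI in pGF day 2 and 0 in pGF day 7, against 0 in SPF day 2 and 61471 (5211 CPM) in SPF day 7. On the same floor Ngp was at least 185-fold lower in pGF at day 7.

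Counted by cell, Ngp was found in 0 of 76 pGF neutrophils at day 7 and in 71.0% of 2595 in SPF (69.2% to 72.7%). Camp was found in 0 of 76 and 27.6% (25.8% to 29.3%), and Ltf in 1 of 76 and 23.6% (21.96% to 25.3%). A count of 0 in 76 cells allows a share of cells with a UMI of up to 4.74% by the exact interval, which limits detection at a median of 1183 UMIs and not the share of cells expressing the gene. After thinning each cell to 1000 UMIs, which left 54 pGF and 2001 SPF cells, Ngp stayed at 0% against 61.0%, and Camp at 0% against 16.6%. In SPF day 7, 443 neutrophils (17.1%) held UMIs of all 3 genes and 714 (27.5%) held none. Ltf was found in 62.0% of the cells with Camp and in 8.99% of those without. These shares were not thinned, and median depth was 6504.5 UMIs in cluster c5 of that library and 774.5 in cluster c11. Overlap beyond that of depth was not tested. The 10 richest cells held 18.8% of all Ltf UMIs and 19.5% of all Camp UMIs.

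**Figure D3:**
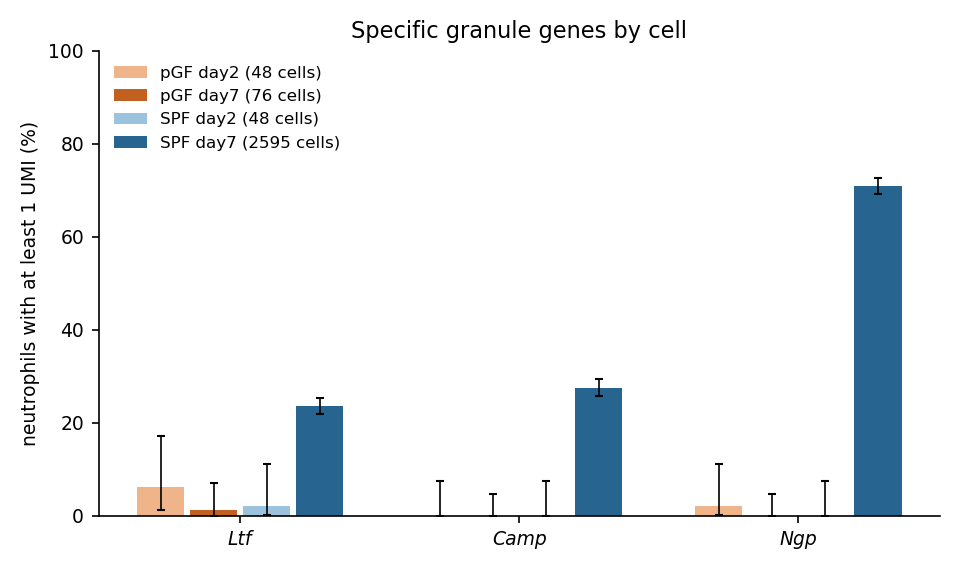
Share of neutrophils with at least 1 UMI of Ltf, Camp or Ngp, as a percentage from 0, in pGF days 2 and 7 and SPF days 2 and 7 (bars are 1 library each, whiskers are exact binomial 95% intervals). SPF day 7 stands at 23.6%, 27.6% and 71.0%, and the other 3 libraries at 6.25% or below.

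Retnlg and Wfdc21 took a middle place. Retnlg stood at 4115 and 4353 CPM in pGF days 2 and 7, and at 7932 and 32998 CPM in SPF days 2 and 7, and was 7.58-fold lower in pGF at day 7 (6.92 to 8.32). Wfdc21 stood at 514 and 649 CPM in pGF days 2 and 7, and at 376 and 5057 CPM in SPF days 2 and 7, 7.80-fold lower in pGF at day 7 (6.16 to 10.0). At day 2 the pGF level of Retnlg was 0.519 times that of SPF (0.451 to 0.596), but 279 of the 485 SPF UMIs came from the 13 cells outside c17. In c17 alone the levels were 4048 CPM in pGF and 4266 CPM in SPF, a ratio of 0.949 (0.796 to 1.13). Its paralog Retnla had 0 UMIs in pGF neutrophils of days 2 and 7, against 12 (196 CPM) and 97 (8.22 CPM) in SPF. In pGF day 7 neutrophils 1 UMI makes 9.40 CPM, so their depth was too low to compare Retnla at day 7.

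At day 2 each arm had 48 neutrophils. Of 7 measured members, 3 were 2-fold higher in pGF and 0 were lower, where 27.8% of 7877 measured genes were higher at these depths. Lcn2 was 3.49 times as high (2.26 to 5.61), S100a8 1.79 times (1.67 to 1.92) and S100a9 1.78 times (1.68 to 1.89). The other members called were Ltf and Ngp, which rest on 4 and 1 pGF UMIs, and Lcn2 was the only one left with a mitochondrial limit of 20%, at least 500 genes per cell, at least 1000 UMIs per cell or no doublets removed. In c17 alone (43 pGF and 35 SPF cells) 2 of 7 measured members were higher, where 32.2% of 7325 genes were, with a ratio of 2.87 for Lcn2 (1.86 to 4.61), 1.47 for S100a8 (1.38 to 1.57) and 1.47 for S100a9 (1.38 to 1.56).

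Over time the arms parted. From day 2 to day 7 all 8 members rose 2-fold or more in SPF neutrophils, where 11.5% of 6712 measured genes did, by a factor of 7.03 for S100a8 (6.64 to 7.44), 24.6 for Lcn2 (16.7 to 38.0), 13.4 for Wfdc21 (8.96 to 21.2) and 4.16 for Retnlg (3.81 to 4.56). The factors were smaller in c17 alone, at 2.77 for S100a8 (2.62 to 2.94), 6.28 for Lcn2 (4.24 to 9.72), 5.17 for Wfdc21 (3.44 to 8.18) and 2.49 for Retnlg (2.16 to 2.87). There 6 of 7 measured members rose, as did 840 of 6004 measured genes. In pGF neutrophils 0 of 7 measured members rose and 3 fell, where 27.8% of 7002 measured genes fell. The S100a8 level at day 7 was 1.02 times that at day 2 in pGF (0.976 to 1.07) and S100a9 was 1.07 times (1.02 to 1.11). Lcn2 fell 2.92-fold in pGF (2.10 to 4.12), and the other calls, Ltf and Ngp, rest on 4 UMIs or fewer. In c17 alone 3 of 7 also fell in pGF, where 23.9% of 7733 genes did.

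Most SPF day 7 neutrophils sat in c5 and the low-depth c11 (760 cells, median 774.5 UMIs). Other libraries hardly entered c5, with 2 cells, both of pGF day 7, while c11 also held 13 of the 48 SPF day 2 neutrophils. Held to cluster c17, which had 69 pGF and 317 SPF cells at day 7, 6 of 7 measured members were 2-fold lower in pGF, where 6.43% of 6637 genes measured in c17 were. S100a8 was at 33470 against 68573 CPM, S100a9 at 45010 against 98934, Lcn2 at 379 against 3250, Retnlg at 2777 against 10607 and Wfdc21 at 635 against 2464, pGF first in each pair. Ngp had 0 against 81 UMIs. Ltf, with 1 against 6 UMIs, and Camp, with 0 against 5, were near 0 in c17 of both arms, and c5 held 5075 of the 5311 Ltf UMIs and 7598 of the 7984 Camp UMIs of SPF day 7 neutrophils.

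Other neutrophil genes were read from fixed lists. The primary granule genes Mpo, Elane, Prtn3, Ctsg and Ms4a3, which precede the specific granule genes in the marrow, had 0 UMIs in pGF day 7 neutrophils, and in SPF day 7 only Prtn3 passed 1 CPM, at 8.73 CPM. Among 8 other specific and gelatinase granule genes, 6 were lower in pGF at day 7 and 0 higher, where 10.2% of all measured genes were lower. The median log2 ratio over that list was -2.24. Chil3, a chitinase-like protein, had 0 UMIs against 10856, and Cd177, a neutrophil surface protein, had 18.8 against 853.6 CPM. Mmp8, neutrophil collagenase, had 94.0 against 1583 CPM, while Mmp9, gelatinase B, had 1626 against 1600 CPM, near equality. In c17 alone Cd177, Olfm4, Mmp8 and Chil3 of this list were 2-fold lower in pGF at day 7. Itgb2l was at 10.2 against 9.66 CPM there and Hp at 779 against 978 CPM. Mmp25 and Mmp9 were higher in pGF in c17, by less than 2-fold. Among 6 genes of mature neutrophils, 2 were higher in pGF and 0 lower, with a median of 0.90. Over all measured genes 28.5% were that much higher, with a median of 0.54, so this count is near the background. The 2 were Csf3r, the G-CSF receptor, at 2200 against 470.0 CPM, and Sorl1 at 1448 against 493 CPM. In c17 alone Csf3r was at 2296 against 1184 CPM and Sorl1 at 1486 against 773 CPM, both less than 2-fold apart. Of 6 measured regulators of granule genes, 0 were past 2-fold. Cebpe, the specific granule regulator, had 1 UMI in pGF (9.40 CPM, against 10.0 CPM in SPF), too few to compare, and Cebpb was at 4729 against 3664 CPM. Of 4 measured other S100 genes only S100a6 was lower, at 4907 against 15638 CPM. Among 6 measured receptors of the secreted proteins, Ly96, the partner of Toll-like receptor 4, was the only one 2-fold higher, at 47.0 against 14.7 CPM on 5 pGF UMIs, a share below that over all genes.

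Monocytes or macrophages carried the members in 1 library. At day 7, 6 of 6 measured members were lower in pGF (242 cells) than in SPF (1656 cells), where 5.13% of 7679 measured genes were lower, with a median log2 ratio of -4.70 (-4.80 with members at 0 UMIs set at their bounds) against 0.33 over all genes. S100a8 was at 59.6 CPM (44.2 to 78.5) against 3145 CPM (3109 to 3182), and S100a9 at 42.9 CPM (30.0 to 59.4) against 890.2 CPM (870.9 to 909.9). Lcn2 was at 2.38 CPM (2 UMIs) against 1561 CPM (1535 to 1587), a 655-fold lower level whose interval runs from 181 to 5410. Wfdc21 had 0 UMIs in pGF against 3490 in SPF, at least 108-fold lower at a floor of 3 UMIs. Ltf and Camp stayed below 10 CPM in both arms. Different clusters made up the class, since 42.98% of its pGF cells were in the C1q-rich cluster c10 and 61.6% of its SPF cells in c9.

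Single cells decided the other monocyte values. In pGF at day 0 all 208 UMIs of S100a8 and S100a9 came from 1 of 173 cells, in SPF at day 2 a single cell of 359 gave 125 of 132 (94.7%), and in pGF at day 7 a single cell of 242 gave 82 of 86 (95.3%). In pGF day 2 and SPF day 0 there were 0 UMIs of either gene. Consequently the calls at day 0, where 2 of 3 measured members were higher in pGF (0.703% of genes were), dropped to 0 without that cell. The calls at day 2, where 2 of 2 were lower in pGF (2.86% of genes were), likewise dropped to 0. From day 2 to day 7 in pGF, 3 of 3 rose (1.68% of genes did), and 1 was left without the cell, Retnlg. The pGF day 0 cell held UMIs of 10 of the 12 neutrophil markers and 11 of the 13 macrophage markers, the SPF day 2 cell of 8 and 2, and the pGF day 7 cell of 7 and 10. Whether these droplets held more than 1 cell was not tested. In SPF day 7, by contrast, 337 of 1656 cells (20.4%) had at least 10 such UMIs, and the highest held 3.83% of the class total.

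**Figure D4:**
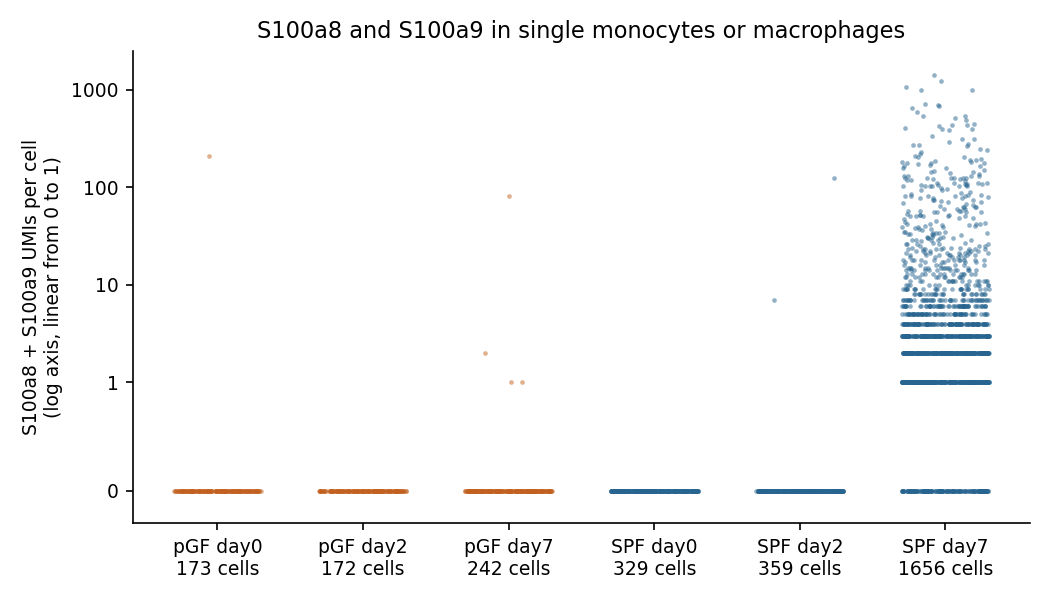
UMIs of S100a8 and S100a9 together in each monocyte or macrophage, on an axis that is linear from 0 to 1 and logarithmic above, for pGF and SPF libraries by day; every dot is 1 cell. Days 0 and 2 show single high cells in pGF day 0 and SPF day 2, while 337 cells of SPF day 7 reach 10 UMIs or more.

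From day 2 to day 7 in SPF, 6 of 6 measured members rose in monocytes or macrophages, where 4.81% of 7958 measured genes did. Lcn2 had 14100 UMIs at day 7 against 0 at day 2, at least 774-fold higher at a floor of 3 UMIs. The proportions of the members set this class apart from neutrophils of the same library. Per 100 UMIs of S100a9 there were 353 of S100a8, 175 of Lcn2 and 43.4 of Wfdc21 in monocytes or macrophages, against 103.8, 7.62 and 3.83 in neutrophils. T or NK cells, which are not known to make these RNAs, gave 97.7, 12.3 and 3.27, close to neutrophils for S100a8 and Wfdc21 but higher for Lcn2. Ngp was also higher in T or NK cells, at 6.71 per 100 against 3.94 in neutrophils. For Retnlg the order was reversed, with 8.95 per 100 in monocytes or macrophages against 24.97 in neutrophils and 25.2 in T or NK cells.

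**Figure D5:**
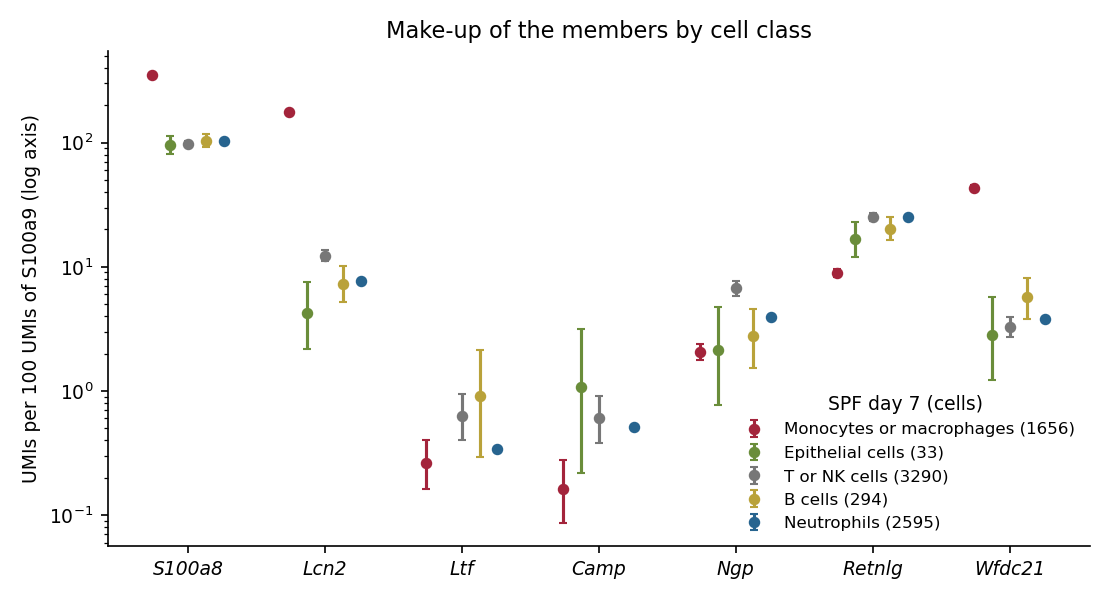
UMIs of each other member per 100 UMIs of S100a9 on a log axis in 5 classes of SPF day 7 (bars are exact 95% intervals, classes with 0 UMIs of a gene are not drawn). Monocytes or macrophages lie above the other classes for S100a8, Lcn2 and Wfdc21 and below neutrophils for Retnlg.

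Most of that signal came from cluster c9, which held 1020 of its 1030 cells from SPF day 7 and was led by Saa3, Cxcl2, Il1b and Cxcl3. In c9, S100a8 was at 3561 CPM, Lcn2 at 1915 CPM and Wfdc21 at 445 CPM, and 68.3% of cells had a UMI of Lcn2 and 43.0% of Wfdc21. Its macrophage markers were all found, with a sum of 3731 CPM, against 945 CPM in the neutrophil cluster c5. Csf1r was at 312 CPM in c9 and 19.6 CPM in c5. Ly6c2 was the only gene of that list lower in c9, at 547 against 832 CPM, and made up most of the c5 sum. The neutrophil markers Ly6g, Stfa2l1 and G0s2 were at 1.14, 2.72 and 35.3 CPM in c9, against 622 CPM, 1232 CPM and 5103 CPM in c5. Other neutrophil markers differed less, with Il1r2 at 633.7 against 2102 CPM and Clec4d at 589.8 against 706.9 CPM. None of its class's markers was among the 10 leading genes of c9, and the neutrophil list summed to 2549 CPM there, against 16445 CPM in c5. The C1q-rich cluster c10 (84 SPF day 7 cells) had 460 CPM of S100a8, 504 of S100a9 and 24.9 of Lcn2, with 91.3 S100a8 per 100 S100a9 against 412 in c9. Members varied within the class, and c10 lay near the neutrophil proportion of 103.8.

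Epithelial cells gave little. In pGF and SPF at day 0 (109 and 123 cells) none of the 8 members had a UMI. At day 2, Lcn2 had 2 UMIs in 1099 pGF cells and 2 in 756 SPF cells, below 1 CPM in both arms. One cell held 118 of 120 S100a8 and S100a9 UMIs in pGF at day 2, and another 147 of 205 in SPF. At day 7, 7 of 7 measured members were lower in pGF (85 cells) than in SPF (33 cells), where 7.11% of 9167 measured genes were. S100a8 was at 33.7 against 1836 CPM and Lcn2 at 0 UMIs against 12 UMIs (81.6 CPM). In pGF all 87 UMIs of S100a8 and S100a9 came from 1 cell, and in SPF 1 cell held 47.0%. The SPF day 7 epithelial cells had a median of 760 UMIs. Their 96.1 S100a8 and 2.85 Wfdc21 per 100 S100a9 lay near the neutrophil proportions of 103.8 and 3.83. Lcn2 was lower, at 4.27 per 100 on 12 UMIs against 7.62 in neutrophils. Of 6 measured genes of the inducible epithelial defence list, 1 was higher in pGF at day 7 (11.2% of genes were) and 2 were lower, with a median log2 ratio of -0.24. Reg3g, an antibacterial lectin, was at 208.9 CPM in pGF against 74.8 CPM in SPF, and the lower genes were Duox2 (15.0 against 61.2 CPM) and Slpi (10.3 against 54.4 CPM), all 3 on 11 SPF UMIs or fewer. The related lectin gene Reg3b was at 6.90, 105.8 and 709.1 CPM in pGF epithelial cells at days 0, 2 and 7 and at 427, 347.5 and 1279 CPM in SPF.

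As free RNA, the members were present in nearly every class of SPF day 7. In T or NK cells 6 of 6 measured members were lower in pGF at day 7, where 0.893% of 8398 measured genes were, and in B cells also 6 of 6, where 1.60% of 8055 were. In T or NK cells S100a8 reached 2.64 CPM in pGF against 317 CPM in SPF, and S100a9 reached 3.35 CPM against 325 CPM. At least 1 UMI of S100a8 or S100a9 was found in 0.716% of 4470 pGF T or NK cells and 79.6% of 3290 SPF ones, at median depths of 2395 and 3128.5 UMIs. Thinned to 1000 UMIs, S100a8 was found in 0.234% of pGF and 25.5% of SPF cells (194 pGF and 173 SPF cells were too shallow). At day 0 in both arms and at day 2 in SPF, T or NK cells had 0 UMIs of S100a8 and S100a9, and 9 at day 2 in pGF. B cells held S100a8 at 2.15 CPM in pGF against 875 CPM in SPF at day 7, where 5 of 294 SPF cells held 55.2% of S100a8 and S100a9 UMIs.

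Set against neutrophils of the same library, each member reached 0.210% to 0.456% of its neutrophil CPM in T or NK cells of SPF day 7. Monocytes or macrophages lay in that range or just outside it for Camp (0.213%), Ngp (0.353%), Retnlg (0.242%) and Ltf (0.516%), but at 0.674% for S100a9, 2.29% for S100a8, 7.64% for Wfdc21 and 15.5% for Lcn2. On the CPM scale the intervals of Camp, Ngp, Retnlg and Ltf overlapped those of T or NK cells. Monocytes or macrophages were deeper, with a median of 5093.5 UMIs per cell against 3128.5 in T or NK cells and 1997.5 in B cells. UMIs per droplet were not compared, so a level above free RNA was not tested for any member. Lcn2, Wfdc21, S100a8 and S100a9 lay above the T or NK range. In B cells, where 5 cells held most of the S100a8 and S100a9 UMIs, the levels were 0.616% for Lcn2 (0.440% to 0.839%), 0.950% for Wfdc21 (0.645% to 1.35%), 0.638% for S100a8 (0.586% to 0.693%) and 0.640% for S100a9 (0.588% to 0.696%). Monocytes or macrophages thus lay above both lymphocyte classes for Lcn2, Wfdc21 and S100a8, but not for S100a9, whose interval overlapped that of B cells. In pGF day 7 the T or NK level was 0.00738% of the neutrophil level for S100a8 and 0.00697% for S100a9. Retnlg was higher there, at 0.131% (65 UMIs, 5.72 CPM), with 171 UMIs per 100 of S100a9 against 9.07 in pGF neutrophils. Retnlg also gave 33 UMIs in 3 SPF day 0 macrophages that had 0 of S100a8 and S100a9. Dendritic cells of SPF day 0 held 4487 UMIs of the paralog Retnla (4628 CPM) and 0 of Retnlg. Low Retnlg values outside neutrophils are uncertain, since how reads were split within this gene family was not tested.

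Barcodes without a clear cell type carried the same signature. In SPF day 7, 1224 cells stayed unnamed, 1173 of them in cluster c7, which had a median of 727 UMIs and scored highest for neutrophils, and members took 7.27% of the UMIs of c7. The 10 leading genes of c7 included S100a8, S100a9, Retnlg and Lcn2 and no neutrophil marker. In 291 haemoglobin-led droplets of SPF day 7 S100a8 was at 11.7% of its neutrophil CPM. These droplets entered the whole-library shares but none of the comparisons by class.

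Across the 49 sums of class and library with at least 20 cells, the genes most like each member were taken by Pearson's r of log2 (CPM + 10), as a description, since sums share libraries and free RNA. Wfdc21 was closest to Lrg1 (0.98), Mmp8 (0.98) and Fpr1 (0.97), and Lcn2 to Mmp8 (0.96), Lrg1 (0.94) and Fpr1 (0.94). Camp and Ltf were both closest to Prok2 (0.96 and 0.95), and Ngp to Cstdc5 (0.93), Stfa2 (0.93) and Prok2 (0.93). S100a8 and S100a9 were closest to Lrg1 (0.93 and 0.92), and Retnlg to the stefin Stfa2l1 (0.94). Among the members, S100a8 and S100a9 were nearest each other (0.996), and S100a9 and Camp were furthest apart (0.60). Lrg1 and Stfa2l1 were among the genes used to name neutrophils.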

How the data were processed

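CD45+ colon cells of 1 library per group (pGF and SPF, days 0, 2 and 7) were measured with a 10x 5' kit. Raw UMI counts, as the authors deposited them, were made with Cell Ranger 6.1.2 per the file headers, and the submitters' processing notes name mm10, R 4.1.3 and Seurat 4.1.1. No count was normalized in the deposited files, and whether counting used strand is not given in the sources used here. Samples were grouped by their titles.

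Cells with at least 200 genes and at most 10% mitochondrial UMIs were kept, and the highest doublet scores were removed at 0.8% per 1000 barcodes, which left 29130 of 40523 barcodes. They were clustered on 2000 variable genes, 30 components and 20 neighbours with Leiden at resolution 1, without the members, antigen receptor genes and mitochondrial genes, and 42 clusters were named from marker lists (score of at least 1, at least 3 markers). UMIs were summed per class and library. Classes with at least 20 cells in both libraries were compared, and a gene was measured at 10 CPM or more in either. With 1 library per group there was no test. Intervals (Poisson, Clopper-Pearson, conditional binomial) are at 95% and cover counting error only. A level at 0 UMIs was set at 3 UMIs for bounds. Named genes were the 8 members, genes of the fixed lists and, for likeness, the 3 genes with the highest r among those with at least 50 CPM in a sum. The members and lists were chosen with earlier results of these data known. Fold calls were tested on simulated data. Alternatives covered filters, doublets, clustering, depth, scaling (TMM, edgeR 4.0.16), pseudocount and free RNA. Work used Python 3.11.15, numpy 2.4.6, scipy 1.17.1, scikit-learn 1.9.0, igraph 0.11.9, leidenalg 0.10.2 and R 4.3.3.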

Additional observations from a re-analysis of the deposited data

Results flagged for a closer look

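Lcn2, Ltf and Ngp moved in opposite directions in neutrophils of the arms between day 2 and day 7, and the difference was not tested. The log2 ratio of day 7 to day 2 was -1.53 in pGF and 4.59 in SPF for Lcn2, -1.52 and 4.13 for Ltf, and -1.10 and 9.03 for Ngp. The pGF values of Ltf and Ngp rest on 4 UMIs or fewer, and those of Lcn2 on 52 UMIs at day 7 and 125 at day 2. In cluster c17 alone Ltf fell in both arms, at -1.51 in pGF and -0.75 in SPF, on 6 UMIs or fewer per library. Lcn2 (-1.94 and 2.63) and Ngp (-1.13 and 3.61) still moved in opposite directions there.

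In monocytes or macrophages, S100a8 and S100a9 also moved in opposite directions between day 0 and day 2, with log2 ratios of day 2 to day 0 of -2.36 in pGF and 2.29 in SPF for S100a8, and -3.68 and 2.58 for S100a9. This difference was not tested either. A single pGF cell at day 0 and a single SPF cell at day 2 held 100% and 94.7% of those UMIs.

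The members were also present in barcodes left out by the filters, which no comparison by class used, above the level in such barcodes at day 0 of the same arm. They made up 0.00913% and 0.0292% of the UMIs of left-out barcodes in pGF at days 2 and 7, against 9.22e-05% at day 0, and 0.00367% and 6.12% in SPF at days 2 and 7, against 5.94e-05% at day 0.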

How the results depend on the processing

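With 1 library per group no value has a replicate check, and neutrophils were few outside SPF day 7, so Camp, Ngp and Ltf are limited by depth in the other libraries. Of 140 counts of members past 2-fold under other settings, 132 stayed within 1.5 times the reported count and 8 did not. In neutrophils at day 2, members higher in pGF numbered 1 in place of 3 with a mitochondrial limit of 20%, at least 500 genes per cell, no doublets removed or at least 1000 UMIs per cell. In monocytes or macrophages at day 2, members lower in pGF numbered 0 in place of 2 with at least 500 genes, no doublets removed, at least 1000 UMIs or the members used for clustering. Leaving out the highest S100a8 and S100a9 cell of each class and library, an alternative chosen after seeing the data, gave 0 in place of 2 at day 0 and at day 2, and 1 in place of 3 for pGF day 7 against day 2. The day 7 counts ran from 6 to 8 in neutrophils and from 4 to 6 in monocytes or macrophages over all settings. Among 802 log2 ratios under those settings 708 stayed within their counting interval, 92 left it and 2 turned round, both of Retnlg in monocytes or macrophages with the T or NK level subtracted, to 1.87 for pGF against SPF at day 7 and to -0.050 for SPF day 7 against day 2. In cluster c17 alone, also chosen after seeing the data, Ltf turned to 0.15 for pGF against SPF at day 7 and to -0.75 for SPF day 7 against day 2, on 6 UMIs or fewer per library. The share of UMIs in the members, pGF over SPF, was 1.48 at day 2 with all deposited barcodes and 1.15 without haemoglobin and antigen receptor genes in the total. At day 7 it was 0.00473 with all barcodes, 0.00493 without those genes and 0.00389 with at least 500 genes per cell, against 0.00454 as reported. Of 64 shares of cells with a UMI, 28 left their counting interval when cells were thinned to 500 in place of 1000 UMIs. No paired analysis was possible because each group has 1 library, so that the groups share no more than 1 replicate number.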
